A study of Danio rerio with 13 samples.

Results

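The myelin and oligodendrocyte genes of the zebrafish brain were chosen as a list of 10 names, of which 7 are described: the transcription factors olig1, olig2 and sox10, and the myelin proteins mbpa, mbpb, cldnk and mag. All 7 were found among the 32105 genes of the count table, and all 7 passed the filter on low counts that left 20064 genes for testing. RNA had been sequenced from the brains of 13 male fish of the AB strain aged 3 months, each of which gave its own library. The groups were 5 wild-type fish (tert+/+), 5 fish heterozygous for a mutant allele of tert, the gene of the telomerase protein subunit (tert+/-), and 3 homozygous fish (tert-/-). The study describes the tert hu3430 line, whose allele carries a nonsense mutation, as the source of its mutants, and the mutation is present in every cell rather than in oligodendrocytes alone. Fish are named by genotype and a number that carries no meaning beyond the order of the records. The number matches no fish of 2 genotypes to each other. P-values set a difference between genotypes against the spread between these fish.

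Oligodendrocytes are the glial cells that wrap axons of the central nervous system in myelin, a compacted stack of membrane that speeds the conduction of impulses. Olig1, Olig2 and Sox10 are transcription factors of the lineage. Olig2 acts early, in the specification of precursors, and Sox10 acts later and switches on genes of myelin proteins. Among those, Mbp holds the inner faces of the membrane together, Mag is an adhesion protein of the membrane layer next to the axon, and claudin k, the product of cldnk, is a tight junction protein of fish myelin.

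The libraries held 22008289 to 32380953 counted reads, of which 8.14 to 13.8% fell on the 13 mitochondrially encoded genes. Replicates of a genotype differed by more than sampling noise in all 23 pairs, with a chi-square per degree of freedom of 18.5 to 84.2, so that no library was a copy of another. The tert transcript itself lay at 1.98 to 3.88 CPM (reads of a gene relative to the library total, after TMM scaling) in tert+/+, 3.61 to 8.80 CPM in tert+/- and 3.96 to 10.4 CPM in tert-/- fish. The means were 2.55 ± 0.776, 5.70 ± 1.92 and 8.02 ± 3.53 CPM, so it was higher on average in the mutants. The tert-/- fish did not overlap with the tert+/+ fish, as in 2.17% of all genes, whereas the tert+/- fish did. Why the level was higher was not tested. Since a nonsense allele can leave its transcript in place, this level does not check the genotypes. Photoreceptor transcripts stood apart in tert+/+ 1, tert+/+ 5 and tert+/- 3, and Hox transcripts of hindbrain and spinal cord ranged from 1.32 to 132 CPM in sum across fish. Median fold changes of the members against the wild type, and correlations between members, are given with and without the 3 libraries of high photoreceptor level. The same holds for how ratios of members compare between mutant and wild-type fish. Fold changes of single members without these libraries are given only where the sign turned. The fish of high Hox level were not left out as a set.

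One myelin transcript, mbpa, was among the most abundant of the brain, and the transcription factors were far below it. The 7 genes together took 0.957 to 2.05% of all counted reads of a library, and mbpa alone took 0.900 to 1.95%. Levels of different genes were compared per length, as CPM per kilobase of the gene length behind the deposited RPKM values, in the wild-type fish. On this scale mbpa lay at 5379 ± 1464 CPM per kilobase (SD, n = 5) and ranked 8 among 18804 genes, or 2 once mitochondrially encoded genes were set aside. The second basic protein gene, mbpb, lay at 139 ± 36.6 CPM per kilobase, cldnk at 81.5 ± 14.2 and mag at 58.1 ± 7.79. The transcription factors lay at 29.4 ± 3.33 (olig2), 11.7 ± 2.03 (olig1) and 10.5 ± 1.49 CPM per kilobase (sox10).

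This order was nearly fixed between fish. Of the 6 steps from one gene to the next, 3 held in all 13 fish. Cldnk was above mag in 12 fish, mag above olig2 in 11 and olig1 above sox10 in 10. Within the wild-type fish the ranges of mbpb and cldnk, of cldnk and mag, and of olig1 and sox10 overlapped, whereas within each single fish mbpb was above cldnk in all 13. The 2 paralogues were very unequal, with 37.0 ± 7.63 mbpa reads for every mbpb read over the 13 fish. How the counting treated reads that match both paralogues was not checked, so mbpb, the lower of the pair, is the less certain.

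Of the transcription factors, sox10 and olig2 varied less between fish than the median gene, and olig1 about as much. In CPM, olig2 lay at 40.7, 51.7, 48.3, 55.7 and 51.1 in tert+/+ fish 1 to 5, at 48.2, 43.5, 60.4, 64.6 and 47.7 in tert+/- fish 1 to 5, and at 56.9, 63.7 and 46.7 in tert-/- fish 1 to 3. For sox10 the same order of fish gave 26.4, 37.7, 35.7, 31.6 and 37.5 CPM, then 29.8, 31.4, 38.5, 35.3 and 29.1 CPM, then 35.8, 36.6 and 33.6 CPM. Olig1 ran from 11.49 CPM in tert+/- 1 to 23.1 CPM in tert+/- 4. Both olig2 and sox10 were lowest in tert+/+ 1, and for all of these genes the fish of the 3 genotypes overlapped. The biological coefficient of variation is the spread between fish beyond counting noise. It was 13.7% for sox10, 15.4% for olig2 and 20.1% for olig1. The median over the 20064 genes, whatever their level, was 20.3%. The values for mbpa, cldnk and mbpb were 19.5%, 22.3% and 27.5%.

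The most abundant member, the basic protein gene mbpa, moved most among the tert+/+ fish. It lay at 8645, 19446, 15739, 13404 and 14797 CPM in tert+/+ fish 1 to 5, at 14615, 18246, 13867, 17831 and 16962 CPM in tert+/- fish 1 to 5, and at 14948, 13900 and 14333 CPM in tert-/- fish 1 to 3. The lowest and the highest of the 13 fish were both wild type (tert+/+ 1 and tert+/+ 2), and the 3 tert-/- fish lay between them, close together. The coefficient of variation (SD over mean) of mbpa was 27.2% in tert+/+, 12.01% in tert+/- and 3.66% in tert-/- fish. Whether the spread differs by genotype was not tested.

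The less abundant myelin protein genes cldnk and mbpb were also lowest in tert+/+ 1. The tight junction gene cldnk lay at 99.9, 166, 146, 144 and 148 CPM in tert+/+ fish 1 to 5, at 122, 211, 174, 237 and 125 CPM in tert+/- fish 1 to 5, and at 176, 193 and 137 CPM in tert-/- fish 1 to 3. Mbpb lay at 240, 525, 407, 365.5 and 401 CPM, then 257.7, 540, 420, 457 and 575 CPM, then 375, 341 and 624 CPM. For both genes tert+/+ 1 was the lowest fish of all, and the highest was tert+/- 4 for cldnk and tert-/- 3 for mbpb. Across the members tert+/+ 1 was the lowest of all 13 fish for 5 of 7 genes, the exceptions being olig1 (lowest in tert+/- 1) and mag (lowest in tert-/- 2), and tert+/- 4 was the highest for 3 (olig1, olig2 and cldnk). In bulk RNA, fewer cells of a type and less RNA per cell cannot be told apart.

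**Figure D1:**
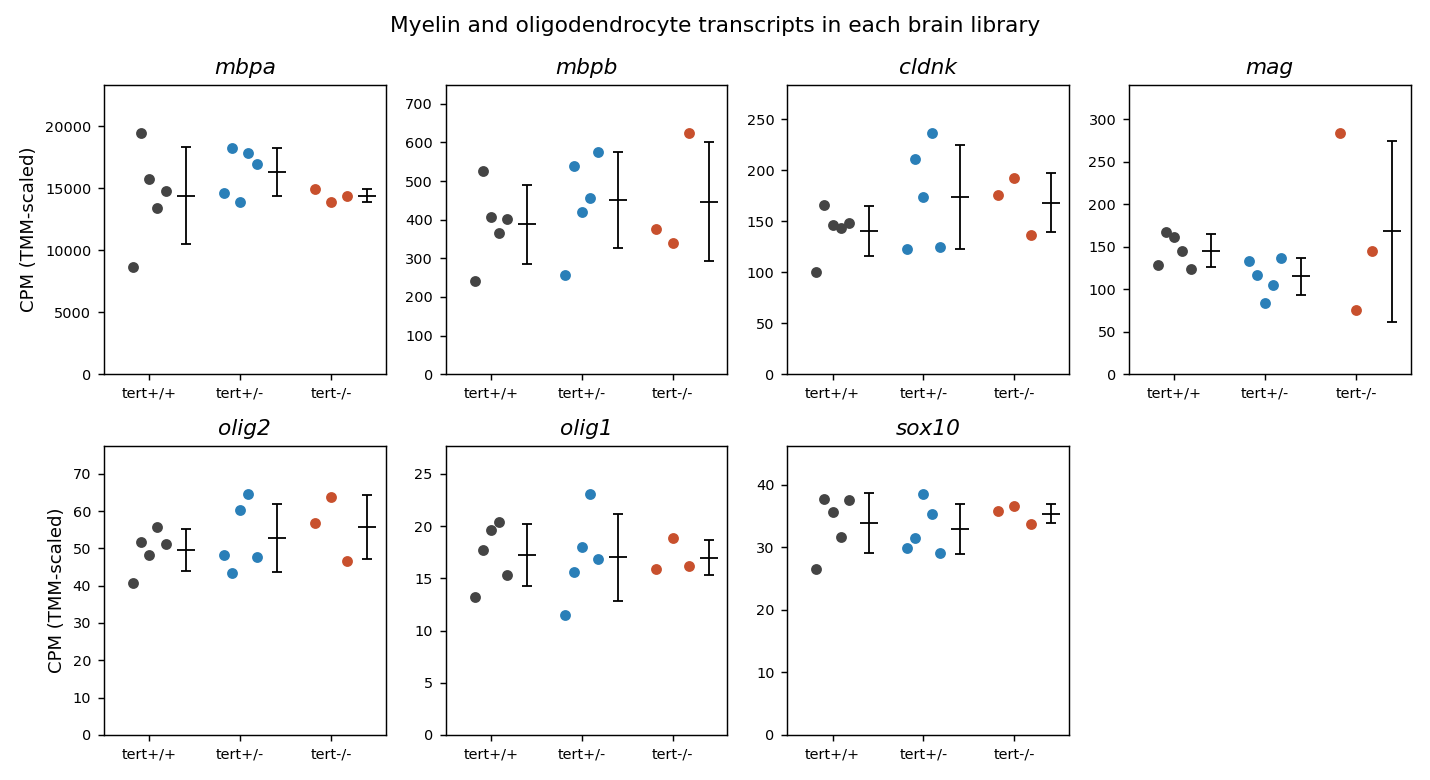
TMM-scaled CPM of the 7 genes (vertical axes start at 0 and differ between panels) in each fish, by genotype; each point is 1 fish, and the bar beside the points is the mean with its SD over 5, 5 and 3 fish. In most panels tert+/+ 1, the first black point, is the lowest fish, and in every panel the points of the 3 genotypes overlap, with mag in tert-/- reaching from 75.4 to 284 CPM.

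Across the 13 fish the members other than mag tended to rise and fall together, and less so without tert+/+ 1. Over the 13 libraries the 15 pairs of these 6 genes had Pearson correlations of log2 CPM between 0.03 (olig2 and mbpb) and 0.71 (mbpa and mbpb), with a median of 0.52. The pairs of mbpa, mbpb and cldnk lay between 0.40 and 0.71. The pairs of the 3 transcription factors lay between 0.52 and 0.67, and the 9 pairs of a transcription factor with 1 of these 3 myelin protein genes between 0.03 and 0.66, with a median of 0.44. Cldnk was as close to the transcription factors (0.61 for olig1, 0.66 for olig2 and 0.64 for sox10) as to mbpa (0.63). Over deviations from the genotype means the 15 pairs lay between -0.04 and 0.72. These are descriptions over libraries that share depth and tissue composition, and much of them rested on 1 low fish. Setting mag apart was not fixed in advance, so its distance from the other members is a description too. Without tert+/+ 1 the 15 pairs lay between -0.35 (olig2 and mbpb) and 0.57 (olig1 and olig2), with a median of 0.36 over 12 libraries, an alternative chosen after the data were seen. The pairs of mbpa, mbpb and cldnk then lay between 0.12 and 0.53 and those of the transcription factors between 0.38 and 0.57, and the median of the 9 mixed pairs was 0.13. Without the 3 libraries of high photoreceptor level, of which tert+/+ 1 is 1, the 15 pairs lay between -0.37 and 0.58, with a median of 0.40 over 10 libraries.

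**Figure D2:**
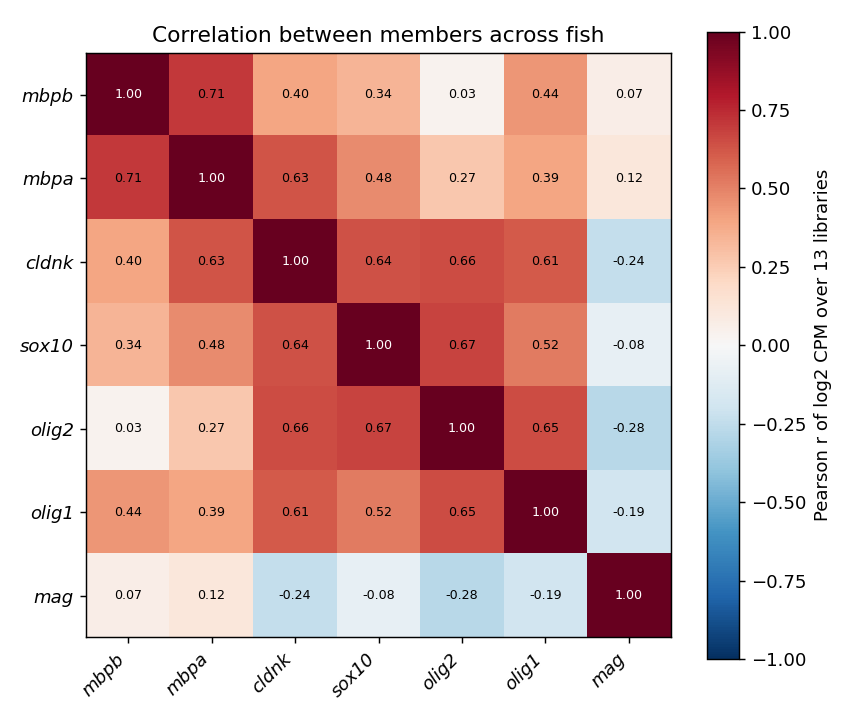
Pearson correlation of log2 CPM between each pair of the 7 genes over 13 libraries, printed in each square and coloured from -1 (blue) to 1 (red). The block of mbpb, mbpa and cldnk at the top left holds values of 0.40 to 0.71, that of the 3 transcription factors values of 0.52 to 0.67, and the row and column of mag, off the diagonal, hold values of -0.28 to 0.12.

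Genes outside the list that followed the members most closely over all 13 fish included 2 enzymes of myelin lipids, which lost that place without tert+/+ 1. Among 12723 genes with a mean of at least 5 CPM, the 10 with the highest correlation with the mean level of the 7 members (r = 0.87 to 0.93 over 13 libraries) were ENSDARG00000099804, plp2b, ENSDARG00000056910, stk17b, fa2h, paqr6, ugt8, zgc:113337, si:dkey-224e22.2 and ap1m3. Ugt8 makes galactosylceramide and Fa2h hydroxylates the fatty acids of such lipids, both abundant in myelin. Ugt8 lay at 53.3 ± 10.9 CPM in tert+/+ (n = 5), 58.4 ± 11.9 in tert+/- (n = 5) and 58.5 ± 1.71 in tert-/- fish (n = 3). Fa2h lay at 87.6 ± 26.2, 96.3 ± 21.4 and 95.8 ± 13.1 CPM. Paqr6 lay at 49.5 ± 16.1, 52.9 ± 19.7 and 49.4 ± 7.26 CPM. None of the 10 was called between genotypes by edgeR, beside 0.0% of all genes. The unadjusted p was 0.193 or more in every pairwise comparison (edgeR). Since these genes were chosen for following the mean level of the members, this is no separate result. The list itself depended on the fish. Of the 10 genes, 7 remained when correlations were taken over deviations from the genotype means, and 3 remained without tert+/+ 1 (also chosen after the data were seen). Without that fish fa2h was at rank 100 and ugt8 at rank 147, and ugt8 was also at rank 14 over deviations from the genotype means.

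Single members had neighbours of their own. The pattern of mbpa was most like that of stxbp6l (r = 0.92) and fa2h (r = 0.92). Cldnk was closest to atp1a3b (r = 0.96), the gene of a sodium pump subunit, and to gjb1 (r = 0.96), the gene of connexin 32, a gap junction protein of myelinating cells in mammals, with the neurofilament gene nefma also in its nearest 5 genes (r = 0.94). Mbpb was closest to zwi (r = 0.88) and fa2h (r = 0.87). All of these neighbours were lowest in tert+/+ 1, the fish in which mbpa, mbpb and cldnk were also lowest. Neighbours of single members were not taken without that fish.

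Over all 13 fish the adhesion gene mag stood outside the pattern of the other members, but less so within the wild-type fish. It lay at 128, 168, 161, 145 and 124 CPM in tert+/+ fish 1 to 5, at 133, 117, 83.2, 105 and 137 CPM in tert+/- fish 1 to 5, and at 284, 75.4 and 145 CPM in tert-/- fish 1 to 3. The highest and the lowest fish of the whole series were thus both tert-/- fish, 3.77-fold apart, and the coefficient of variation was 63.2% in tert-/- beside 13.4% in tert+/+ and 19.2% in tert+/- fish. Its biological coefficient of variation, 29.9%, was the widest of the members and lay at percentile 73.0 of all genes tested. Its correlations with the other 6 members ran from -0.28 to 0.12. Without tert+/+ 1 they ran from -0.34 to 0.16 over 12 libraries, with a median of -0.17. The 15 pairs of the other members then ran from -0.35 to 0.57, with a median of 0.36, so the ranges overlapped widely. Without the 3 libraries of high photoreceptor level the correlations of mag ran from -0.30 to 0.09 over 10 libraries. In tert-/- 1, where mag was highest, the other 6 members lay 0.03 above their mean over fish on the log2 scale. In tert-/- 2, where it was lowest, they lay 0.09 above it. Within tert+/+ fish the log2 ratios of mag to the other members had SDs of 0.18 to 0.33, beside 0.04 to 0.33 for pairs without mag. Within tert+/- fish the SDs were 0.28 to 0.65, beside 0.14 to 0.54. Within tert-/- fish they were 0.90 to 1.08, beside 0.04 to 0.73. Correlations of mag with the other members are not given without tert-/- 1 or tert-/- 2.

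The genes most like mag were on none of the oligodendrocyte lists used here. They were pde3b, a phosphodiesterase (r = 0.97), adam9, a membrane protease (r = 0.96), rgs7, a regulator of G protein signalling (r = 0.94), slmap (r = 0.94) and slco3a1, an organic anion transporter (r = 0.94). All 5 were highest in tert-/- 1, and without that fish their correlations with mag were 0.90 to 0.94 over 12 libraries. Pde3b, for example, ran from 18.7 CPM in tert+/- 3 to 39.7 CPM in tert-/- 1. Entries next to mag in the count table did not share its pattern, with r = -0.10 for inpp5k and -0.56 for tmem106b, the ones above 5 CPM among 6 measured entries within 5 rows. Among the gene lists described further on, the mean level of the 17 differentiation regulators ran closest to mag over the 13 libraries (r = 0.81), beside 0.14 for the myelin lipid enzymes.

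**Figure D3:**
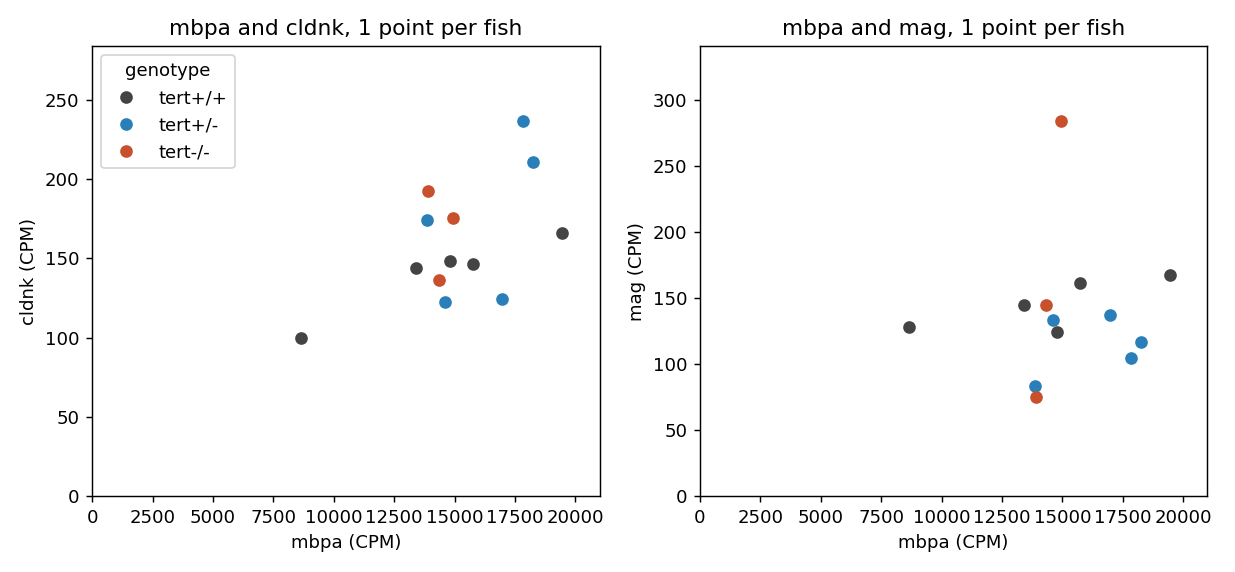
CPM of cldnk (left) and mag (right) against CPM of mbpa, with 1 point per fish coloured by genotype and all axes starting at 0. Cldnk tends to be higher where mbpa is higher (r = 0.63 on the log2 scale, 0.36 without tert+/+ 1), whereas mag shows no such tendency (r = 0.12), and its extremes at 284 and 75.4 CPM are both tert-/- fish of similar mbpa level (14948 and 13900 CPM).

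The ratio of the basic protein genes was singled out after its values had been seen. In the wild-type fish 1 to 5, mbpa gave 36.0, 37.0, 38.6, 36.7 and 36.9 reads per mbpb read, even though mbpa and mbpb themselves varied by 2.25-fold and 2.19-fold between these fish. In tert+/- fish 1 to 5 the ratio was 56.7, 33.8, 33.0, 39.0 and 29.5, and in tert-/- fish 1 to 3 it was 39.8, 40.8 and 23.0. All 8 mutant fish lay outside the narrow wild-type range, 4 above and 4 below it, so the means hardly moved (37.1 ± 0.974 in tert+/+, 38.4 ± 10.8 in tert+/- and 34.5 ± 10.03 in tert-/- fish). Among the 21 pairs of members this was the 1 pair with every mutant fish outside the wild-type range, the median pair having 4 of 8. Without tert+/+ 1, and likewise without the 3 libraries of high photoreceptor level, it was 1 of 2 such pairs. A smaller spread in tert+/+ than in tert+/- fish was seen in 19 of the 21 pairs and was therefore common among them. Because the pair was picked from 21 for this pattern, the values are a description and were not tested. How the counting treated reads that match both paralogues was not tested either.

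**Figure D4:**
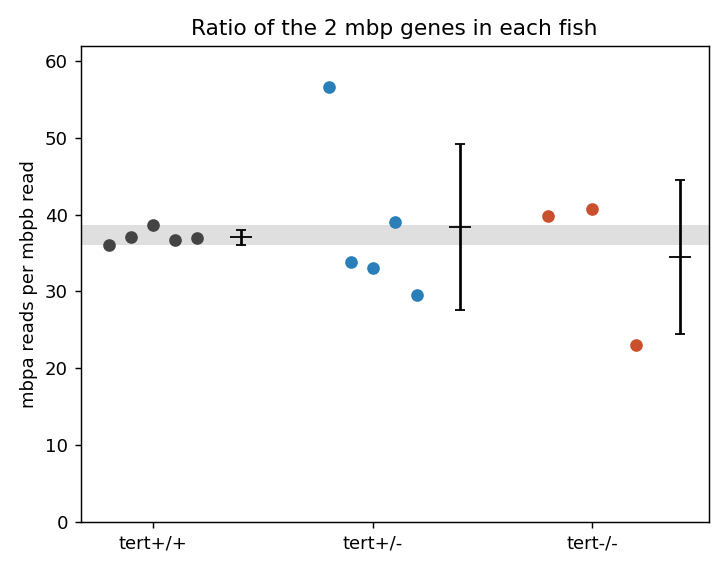
Reads of mbpa per read of mbpb in each fish by genotype, on an axis that starts at 0; points are fish, the bar beside them is the mean with its SD, and the grey band spans the 5 wild-type fish. The wild-type fish lie between 36.0 and 38.6, and the 8 mutant fish lie above or below the band, from 23.0 to 56.7.

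The comparison of tert-/- with tert+/+ fish asked whether loss of telomerase changed these transcripts in young adult brain. No member was called. In this comparison 0 of 7 members had an adjusted p under 0.05 in edgeR's quasi-likelihood test with Benjamini-Hochberg adjustment over all genes, beside 0.0% of the 20064 genes tested. At an unadjusted p under 0.05 it was 0 of 7 members, beside 2.14% of all genes, and DESeq2 called 0 of 7 members, beside 0.0556%, and limma voom called 0 of 7, beside 0.0% of all genes. In none of the 7 did the fish of both genotypes fail to overlap, beside 2.17% of all genes. The most abundant gene, mbpa, was at 14394 ± 527 CPM in tert-/- (n = 3) and 14406 ± 3922 CPM in tert+/+ fish (n = 5), a ratio of 0.999 with a 95% interval from 0.749 to 1.33. The precision was finest for sox10 at 1.05-fold (0.867 to 1.26), and poorest for mag at 1.16-fold (0.730 to 1.84) and mbpb at 1.15-fold (0.757 to 1.75). The lowest unadjusted p belonged to olig2 (log2 difference 0.17 ± 0.15 SE, unadjusted p of 0.258, not called by edgeR), which was higher on average in the mutants with overlapping fish. Cldnk had a log2 fold change of 0.26 ± 0.22 SE and olig1 of -0.02 ± 0.20 SE.

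The comparison of tert+/- with tert+/+ fish asked the same of the loss of 1 copy. Again 0 of 7 members were called by edgeR (0.0% of all genes), by DESeq2 (0.116% of all genes) or by limma voom (0.0% of all genes), 0 had an unadjusted p under 0.05 in edgeR (7.74% of all genes), and 0 had groups without overlap (1.7% of all genes). The group mean of mbpa was slightly above that of the wild type, at 1.13-fold (95% interval 0.881 to 1.45). The lowest p was that of cldnk, 0.30 ± 0.19 SE on the log2 scale (unadjusted p of 0.146 and adjusted p = 0.714 by edgeR). Mag lay the other way, at -0.33 ± 0.27 SE (unadjusted p of 0.235 and adjusted p = 0.765 by edgeR), and olig1 and sox10 were close to 0, at -0.02 ± 0.17 SE and -0.04 ± 0.11 SE. When the fit held the fish of these 2 genotypes alone, mag had an unadjusted p of 0.0399 and was still not called.

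Between tert-/- and tert+/- fish 0 of 7 members were called by edgeR (0.0% of all genes), by DESeq2 (0.0669% of all genes) or by limma voom (0.0% of all genes), with 0 at an unadjusted p under 0.05 in edgeR (4.62%) and 0 without overlap (2.4%). Mag had the largest difference of the members, 0.55 ± 0.31 SE on the log2 scale (unadjusted p of 0.0972 and adjusted p = 0.975 by edgeR), and single fish decided it. Without tert-/- 1 it was -0.06 ± 0.24 SE, and without tert-/- 2 it was 0.90 ± 0.23 SE, with an unadjusted p of 0.00226 and an adjusted p of 0.724 in edgeR. Against tert+/+ fish the same omissions gave mag values of -0.39 ± 0.24 SE and 0.57 ± 0.24 SE, the latter with an unadjusted p of 0.0322. The differences of the other 6 members lay between -0.18 (mbpa) and 0.11 (sox10) on the log2 scale. A slope over 0, 1 and 2 mutant alleles also called 0 of 7 members (0.0% of all genes by edgeR and 0.0593% by DESeq2), with 0 at an unadjusted p under 0.05 in edgeR (2.16% of all genes), and its largest value was that of cldnk, at 0.15 ± 0.11 SE per allele.

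Described together, the median member lay slightly above the wild type in both mutant genotypes, which depended on the libraries used. The median log2 fold change of the 7 genes was 0.17 in tert-/- against tert+/+, with 5 higher, beside a median of 0.00 over all genes tested, of which 50.2% were higher. It was 0.09 in tert+/- against tert+/+, with 4 higher, beside 0.00 and 49.4%. Both comparisons use the same 5 wild-type fish. Without tert+/+ 1 the medians were 0.07 and 0.03, and without the 3 libraries of high photoreceptor level they were 0.05 and -0.02. With the number in the sample title as a covariate the first was 0.03. Between tert-/- and tert+/- fish the median was 0.00, with 3 higher, beside 0.00 and 49.4%.

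**Figure D5:**
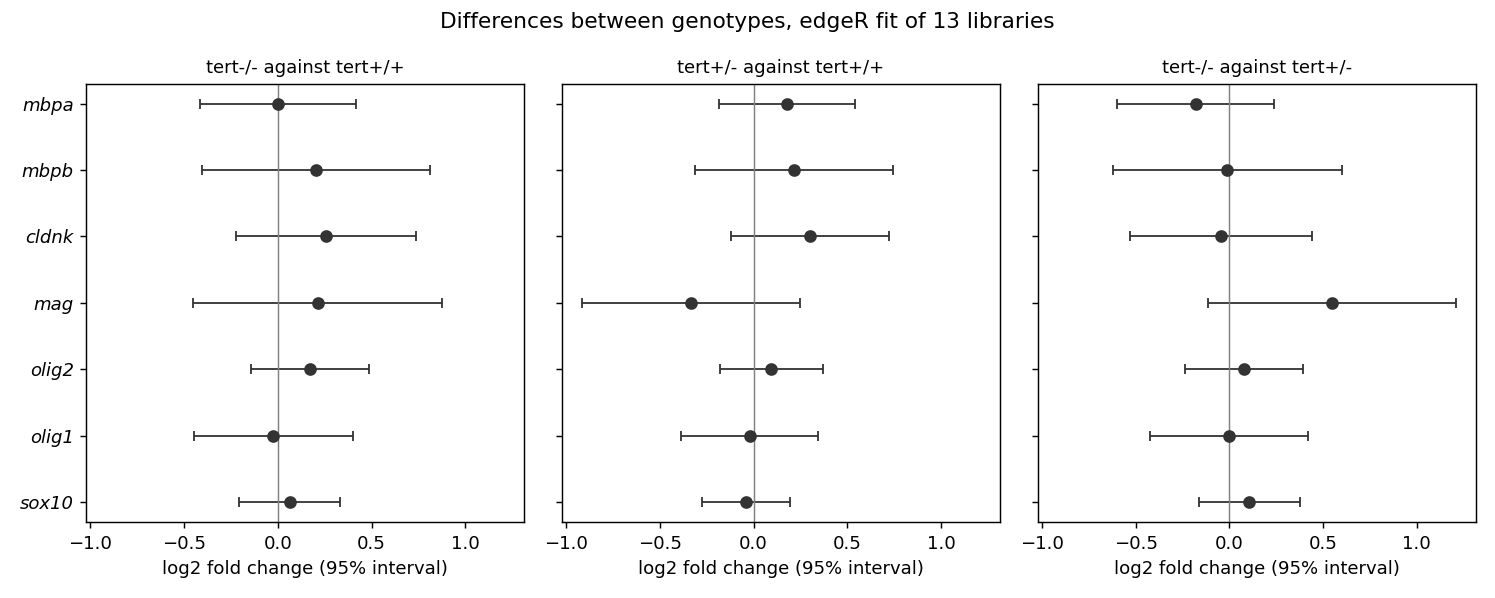
Log2 fold changes of the 7 genes with 95% intervals from the edgeR fit of 13 libraries, in 3 panels for the 3 pairs of genotypes, with the vertical line at 0 marking no difference. Every interval includes 0; mag has the widest ones and the largest difference (0.55 in tert-/- against tert+/-).

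Further genes of the lineage and of its axon partners were read from 5 gene lists. None of these held a called gene in any comparison (edgeR or DESeq2). Of all genes, edgeR called 0.0% in each comparison. DESeq2 called 0.0556% in tert-/- against tert+/+, 0.116% in tert+/- against tert+/+ and 0.0669% in tert-/- against tert+/-. The absence of calls is therefore no result particular to these lists. Of 18 tested genes of oligodendrocyte precursors, 14 were lower in tert+/- than in tert+/+ fish, with a median log2 fold change of -0.15, beside 49.4% of all genes higher, and 2 of the 18 had an unadjusted p under 0.05, beside 7.74% of all genes, a share near the background. They were pdgfra, the receptor through which precursors receive their growth signal, at 8.65 ± 1.71 CPM in tert+/+ and 6.13 ± 0.730 CPM in tert+/- fish (log2 fold change -0.50 ± 0.14 SE, unadjusted p of 0.00431 and adjusted p = 0.602 by edgeR), and sox6, at -0.24 ± 0.11 SE. Ptprz1, a receptor phosphatase of precursors, was at -0.12 ± 0.07 SE. In tert-/- against tert+/+ fish 13 of the 18 were lower, with a median of -0.06 and 0 at an unadjusted p under 0.05. The 17 differentiation regulators had medians of -0.03, -0.06 and -0.01 in tert-/- against tert+/+, tert+/- against tert+/+ and tert-/- against tert+/-. In edgeR, 3 of the 17 had an unadjusted p under 0.05 in tert+/- against tert+/+ (7.74% of all genes), all lower. In tert-/- against tert+/- it was 2, both higher (4.62%), and in tert-/- against tert+/+ 0 (2.14%). Their lowest p values were those of gpr37l1 (1.35 ± 0.52 SE) and zeb2a (0.34 ± 0.14 SE) in tert-/- against tert+/-. The next was lingo1, a receptor that restrains myelination in mammals, in tert+/- against tert+/+ (-0.38 ± 0.17 SE). Gpr37l1 was widely spread, at 14.3 ± 12.5 CPM in tert-/- and 5.62 ± 2.96 CPM in tert+/- fish.

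Among 31 other myelin and mature oligodendrocyte proteins, 13 were higher and 18 lower in tert-/- than in tert+/+ fish, 15 and 16 in tert+/- against tert+/+, and 13 and 18 in tert-/- against tert+/-, with medians between -0.05 and -0.01. The lowest p was that of gpm6b (ENSDARG00000001676) at 74.8 ± 5.81 CPM in tert+/+ and 48.9 ± 14.0 CPM in tert+/- fish (log2 fold change -0.61 ± 0.16 SE, unadjusted p of 0.00249 and adjusted p = 0.602 by edgeR). Aspa, an enzyme that breaks down N-acetylaspartate in oligodendrocytes, followed at -0.80 ± 0.34 SE in tert+/- against tert+/+, and the adhesion gene cntn1a at 0.30 ± 0.14 SE in tert-/- against tert+/-. The 15 myelin lipid enzymes had medians of 0.09, 0.08 and 0.00 in the 3 comparisons. In tert+/- against tert+/+ the elongases elovl7 and elovl1 (ENSDARG00000099960) were at 0.38 ± 0.14 SE and 0.40 ± 0.21 SE, and galc, which degrades galactosylceramide, at -0.35 ± 0.14 SE. The 24 axon-glia signals and node partners had medians of -0.04, -0.02 and 0.00. Rtn4a (0.20 ± 0.07 SE), cntn2 (-0.47 ± 0.17 SE) and the receptor gene erbb2 (-0.60 ± 0.27 SE) had the lowest p, in tert+/- against tert+/+. Erbb2 was low, at 1.64 ± 0.454 CPM in tert+/+ and 1.08 ± 0.367 CPM in tert+/- fish. In this comparison 7.74% of all genes had an unadjusted p under 0.05 in edgeR. Of the lists, 1 higher and 2 lower of these 24 genes did. So did 1 higher and 1 lower of the 15 lipid enzymes, and 2 lower of the 31 proteins.

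The levels of these lists differed in how they followed the members across fish. The mean level of the myelin lipid enzymes correlated with mbpa, mbpb and cldnk at r = 0.67 to 0.86 over 13 libraries, ugt8 and fa2h being among its genes. With sox10, olig1, olig2 and mag this level correlated less, at 0.50, 0.47, 0.16 and 0.14. Tert+/+ 1 was the lowest fish for it (-0.27 on the log2 scale) as for mbpa, mbpb and cldnk. Correlations of the lists without that fish were not taken. Over the same 7 members the precursor list had correlations of -0.43 to 0.40, and the list of other myelin and mature oligodendrocyte proteins of -0.55 to 0.42. In the latter range olig2 was at the low end and mag at the high end.

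Markers of other cells were set beside the members. Neuronal markers were detected throughout (8679 to 10523 CPM in sum), as the label brain implies. Over the 13 libraries their mean level followed mbpa (r = 0.79), cldnk (r = 0.71) and mbpb (r = 0.65). With sox10, olig1, olig2 and mag r was 0.43, 0.27, 0.25 and 0.02. Tert+/+ 1 was the lowest fish for the neuronal level too (-0.17 on the log2 scale, beside -0.04 to 0.14 in the other fish). Correlations with the members ran from -0.15 (mag) to 0.64 (olig1) for endothelium and from -0.45 (mag) to 0.64 (olig1) for microglia. For radial glia they ran from -0.48 (olig1) to 0.19 (mag). The Hox level was high in tert+/+ 1, 2 and 3, tert+/- 2 and 5 and tert-/- 3 (1.42 to 2.63) and low in tert+/+ 5, tert+/- 4 and tert-/- 1 and 2 (-2.67 to -2.35), and it correlated with olig2 at r = -0.71 and with the other members at -0.38 to 0.36. The mitochondrial share of counts correlated with olig2 at r = 0.74, with olig1 at 0.65 and with cldnk at 0.62. For sox10, mbpa and mbpb it was 0.36, 0.31 and 0.25, and for mag -0.55. The part of tissue composition in the spread of the members was not tested. Without tert+/+ 1, tert+/+ 5 and tert+/- 3, the libraries with high photoreceptor level, 0 of 7 members were called in any comparison (edgeR). The share of all genes called in that fit is not given here, and in the edgeR fit of all libraries it was 0.0%. The count is therefore no result particular to the members.

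By genotype, none of the 7 marker lists held a gene called by edgeR, beside 0.0% of all genes. Median log2 fold changes in tert-/- against tert+/+, tert+/- against tert+/+ and tert-/- against tert+/- were 0.06, 0.10 and -0.03 for neurons, 0.10, 0.13 and -0.03 for radial glia, -0.06, -0.08 and -0.05 for microglia, and 0.05, -0.06 and 0.21 for endothelium. They were -0.88, 0.12 and -1.23 for Hox genes, -2.89, -0.99 and -1.95 for photoreceptors, and 0.49, 0.92 and -0.40 for skeletal muscle. The lowest p values, in either direction, belonged to elavl3, syn2 and syt1 among neuronal genes. For radial glia they belonged to cyp19a1 and both fabp7 entries, and for microglia to csf1rb, csf1ra and c1qb. For endothelium they belonged to tie1, tek and slc16a1, and for Hox genes to hoxd4, hoxb4 and hoxb8b. For photoreceptors they belonged to cngb3.1, cnga1 and rcvrna, and for muscle to acta1, casq1 and tnnc2. Acta1 in tert-/- against tert+/+ was the 1 gene of these lists that DESeq2 called, beside 0.0556% of all genes. It was lower in tert-/- fish, opposite to the median of its list (-3.74 ± 0.93 SE on the log2 scale in edgeR). Its levels were 0.520 ± 0.147 CPM in tert-/- and a widely spread 7.01 ± 6.81 CPM in tert+/+ fish. In sum over each list, the photoreceptor genes reached 604 CPM in tert+/+ 5, 303 CPM in tert+/- 3 and 57.2 CPM in tert+/+ 1, and stayed between 9.47 and 14.1 CPM in the other 10 fish. Over 13 libraries the photoreceptor level correlated with the members at r = -0.39 (mbpa) to 0.16 (sox10), sox10 having the only positive value. The muscle level correlated with them at -0.27 (mag) to 0.16 (olig2).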

How the data were processed

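Brain RNA of 13 fish was extracted as total RNA and made into libraries with the TruSeq RNA version 2 kit, which does not mark strand, so overlapping and antisense genes cannot be told apart. The submitters' processing notes name bcl2fastq 1.8.4, STAR 2.4.1d, featureCounts 1.4.6-p4 and the build GRCz10. The study's methods name instead kallisto with Ensembl release 96 for the expression values it analysed, and which annotation lies behind the deposited table is not given in the sources used here. The deposited counts are raw reads per Ensembl gene, and all columns were mapped to samples. The deposited RPKM values were used for gene lengths only, because the authors' library totals had been applied down the table in place of across it: taking the total of the library itself, 8.64% of 124792 values gave a gene's length within 0.2% of its median, and 100% did with the totals repeated downwards. Gene symbols came from a table of names, matched without regard to case, for 81.8% of identifiers. No sequences or positions were used.

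All 13 libraries entered 1 model in edgeR 4.0.16 under R 4.3.3, with no covariates. Low genes were removed by filterByExpr (minimum count 10, by genotype), libraries were scaled by TMM, and differences were tested by the quasi-likelihood F test, 2-sided. The threshold was 0.05 after Benjamini-Hochberg adjustment over 20064 genes. Standard errors came from the F statistic and intervals are at 95%. CPM are given as mean ± SD, and correlations use log2 CPM with a prior count of 2. DESeq2 1.42.0 and limma 3.58.1 (voom) were alternatives, besides other scalings, filters, sets of fish and a covariate. The edgeR steps were also run on simulated data for tert-/- against tert+/+, with changes larger than the member differences described here. The outcome is not given here, and the run does not measure the power to detect such small differences.

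The members and lists were chosen with earlier results of these data known. The other 3 of the 10 names are not reported here, and no summary over the members includes them. All 7 described members were named in each comparison, with the 3 genes of lowest p of each other list. These lists were 5 of oligodendrocyte genes and their axon partners, and 7 of other tissues and cells. Also named were the 10 genes of at least 5 CPM most like the mean member level. The genes most like single members and the ratio of the basic protein genes were chosen after values were seen. Setting mag apart from the other members was not fixed in advance.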

Additional observations from a re-analysis of the deposited data

Results flagged for a closer look

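In tert+/+ 1, cldnk was at 99.9 CPM, whereas the other 4 wild-type fish lay between 144 and 166 CPM. The gap to the nearest fish was 0.717 of the range of the group, above Dixon's critical value of 0.71 for 5 fish. It was the 1 such value among the 14 sets of 5 fish examined (7 members in 2 genotypes), and chance alone gives about 1 in 20.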

How the results depend on the processing

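No member was called under any of the 9 other settings or on leaving out any of the 13 libraries. The lowest adjusted p over 549 values was 0.473 (edgeR). Shares of all genes called are given only for the main edgeR fit, DESeq2 and limma voom. Without such shares, the counts under the other settings are no result particular to the members. On leaving out 1 library the median over the members ran from 0.069 to 0.19 in tert-/- against tert+/+, from 0.013 to 0.14 in tert+/- against tert+/+ and from -0.11 to 0.13 in tert-/- against tert+/-. Of the 21 member differences, some turned sign. In tert-/- against tert+/+, mbpa (log2) became 0.0079 with DESeq2, 0.0070 with RLE factors, 0.046 with limma voom, 0.0085 with no filter, 0.0087 with only these genotypes fitted and 0.0060 with scaling without mitochondrial genes. With the number in the sample title as a covariate mbpb was -0.019. In tert+/- against tert+/+, olig2 was -0.025 without the 3 libraries of high photoreceptor level. In tert-/- against tert+/-, olig1 was 0.038 with limma voom, 0.0068 with no filter, 0.0014 without mitochondrial genes, 0.053 with total counts as library size and 0.025 without the 3 libraries, and total counts gave mbpb 0.041 and cldnk 0.0085. The cause was not tested. On leaving out 1 library, 12 of the 21 differences changed sign, with the following ranges of log2 fold change. In tert-/- against tert+/+ they were mag -0.39 to 0.57, mbpa -0.14 to 0.13, mbpb -0.11 to 0.37, olig1 -0.10 to 0.043 and sox10 -0.0084 to 0.11. In tert+/- against tert+/+ they were olig1 -0.16 to 0.091 and sox10 -0.12 to 0.00035. In tert-/- against tert+/- they were cldnk -0.15 to 0.091, mag -0.056 to 0.90, mbpb -0.33 to 0.16, olig1 -0.11 to 0.13 and olig2 -0.029 to 0.19. Of the 10 genes most like the members, 7 remained over deviations from genotype means and 3 without tert+/+ 1. With 3 to 5 fish a group, the 95% intervals still allow differences such as 1.33-fold for mbpa and 1.84-fold for mag in tert-/- against tert+/+. No paired analysis was possible because the labels give the fish no shared replicate numbers. The numbers used here follow the order of the records.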
